A study of Homo sapiens with 12 samples.

Results

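The 42 genes described here act in G2 and mitosis, from the kinases that start mitosis to the proteins that split the daughter cells. They were taken as a list of gene symbols and not by a rule on measured values, though earlier results of these data were known. All 42 were found among the 20036 genes of the expression table. The 12 RNA-seq libraries came from MV-4-11, an established human acute myeloid leukaemia line with an activating duplication in the receptor kinase gene FLT3 and a KMT2A fusion, labelled as bone marrow and as wild type. Cells received crenolanib together with HPA-12 (called the combination here), crenolanib alone, HPA-12 alone, or DMSO, the solvent, with 3 libraries in each group. Crenolanib is an inhibitor of the FLT3 kinase, and HPA-12 is an inhibitor of CERT, the protein that carries ceramide from the endoplasmic reticulum to the Golgi; the 4 groups allow the pair to be set against each agent alone. Treatment lasted 48 h by the design text, which names no time for the solvent control; no dose is given in the sources used here. All groups are the same line in medium with serum and antibiotics, and the labels do not tell whether libraries of a group are separate cultures. The p-values therefore measure only the spread among these libraries, and that spread may be technical.

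Mitosis starts when CDK1 bound to cyclin B is released from inhibition by the CDC25 phosphatases, with the kinases PLK1 and Aurora A acting beside it. The spindle checkpoint holds back CDC20 until every kinetochore is attached; CDC20 then turns on the anaphase-promoting complex, which marks securin (PTTG1) and cyclin B for destruction and so frees the protease separase to part the sister chromatids. Many of these genes are kept silent in resting cells by the DREAM complex and are switched on late in the cycle by B-MYB, the MuvB core and FOXM1, through a short promoter element called the cell cycle genes homology region (CHR), often near CCAAT boxes.

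That promoter architecture was common among the members. RefSeq promoters (GRCh38.p14) were at hand for 36 of the 42 members. A gene counted where any of its listed starts matched (35116 windows for 27305 genes), so genes with more starts had more chances to match. In the 250 bases before the start, on either strand, the CHR letters TTTGAA were found in 20 of 36 members (55.6%), against 12.1% of the 9058 tested genes with a promoter. The letters CCAAT were found in 28 of 36 members (77.8%), against 41.9% of those genes. Both motifs stood in 17 of 36 (47.2%), against 4.90% of those genes, and the variant TTCGAA stood in 1 of 36 (2.8%), against 1.9%. TTTGAA and CCAAT stood together in 10 of 19 members with a promoter that rose with crenolanib (52.6%) and in 4 of 9 that fell (44.4%). As 20 members rose and 14 fell, the lowered group was covered less fully. AURKA, BIRC5, FOXM1, TPX2 and UBE2C fell and TTK rose, and no promoter was at hand for them. The 6 sequences below are the 110 bases before the start of 3 members that fell with crenolanib (PLK1, CDC20 and CCNB2) and of 3 that rose (HMMR, KIF23 and KIF4A), shown because members that moved in opposite directions carried the same elements. These directions are as deposited. With the GC and length correction described below, KIF23 and KIF4A no longer passed (-0.10 and 0.22, adjusted p = 0.397 and 0.152), while PLK1, CDC20, CCNB2 and HMMR did. Capitals mark TTTGAA and CCAAT, the second written ATTGG where it lies on the other strand. In HMMR 2 copies of TTTGAA stand end to end, and a CCAAT box overlaps another on the opposite strand. A match describes these letters only and says nothing of which factor was bound.
PLK1, chr16:23678779-23678888 (+ strand): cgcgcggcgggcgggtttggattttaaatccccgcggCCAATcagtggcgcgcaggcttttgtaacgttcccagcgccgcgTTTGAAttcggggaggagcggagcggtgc
CDC20, chr1:43358871-43358980 (+ strand): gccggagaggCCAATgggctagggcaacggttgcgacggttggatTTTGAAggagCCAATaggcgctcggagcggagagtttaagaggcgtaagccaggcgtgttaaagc
CCNB2, chr15:59105036-59105145 (+ strand): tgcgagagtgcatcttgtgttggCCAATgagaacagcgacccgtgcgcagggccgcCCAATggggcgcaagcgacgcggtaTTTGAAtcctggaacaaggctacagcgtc
HMMR, chr5:163460522-163460631 (+ strand): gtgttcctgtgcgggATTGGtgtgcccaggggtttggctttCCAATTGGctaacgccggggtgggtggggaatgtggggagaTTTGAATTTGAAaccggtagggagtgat
KIF23, chr15:69414239-69414348 (+ strand): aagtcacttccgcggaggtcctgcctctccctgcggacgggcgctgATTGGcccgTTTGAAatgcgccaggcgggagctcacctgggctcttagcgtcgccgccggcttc
KIF4A, chrX:70289994-70290103 (+ strand): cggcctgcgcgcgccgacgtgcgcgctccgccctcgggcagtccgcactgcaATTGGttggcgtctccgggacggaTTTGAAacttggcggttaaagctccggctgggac

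The deposited values are FPKM, fragments scaled by transcript length and by the mapped fragments of the library, so they are levels per length. Differences below are on the log2(FPKM + 1) scale with their standard error, which understates changes of genes near or under 1 FPKM. A gene rose or fell where limma's moderated test gave a Benjamini-Hochberg adjusted p under 0.05 over all 11149 genes that reached 1 FPKM in at least 3 libraries. Of the 42 members, 40 were tested. NUSAP1, which bundles spindle microtubules, read 0 to 0.929 FPKM, and PRC1, which cross-links the midzone microtubules, read 0 to 0.288 FPKM, so neither reached the level for testing. NUSAP1 shares 62.2% and PRC1 57.6% of its exonic bases with another annotated gene on the same strand, and how the authors' counting treated shared reads is not given in the sources used here. Because the libraries are bulk RNA, fewer cells in a phase and less RNA per cell cannot be told apart.

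The libraries differed in ways that moved with the groups. Depth, estimated from the steps between low values, was 4400000 to 5070000 reads in the combination, 10050000 to 10210000 with crenolanib, 12060000 to 12790000 with HPA-12 and 13570000 to 16000000 in DMSO. Between libraries of a group, the correlation of log2 values was 0.907 to 0.909 in the combination, 0.984 with crenolanib, 0.993 to 0.996 with HPA-12 and 0.996 to 0.997 in DMSO. The 13 mitochondrially encoded genes took 62.2% ± 0.502 of the summed FPKM in the combination, 36.0% ± 0.119 with crenolanib, 21.6% ± 0.472 with HPA-12 and 19.8% ± 0.209 in DMSO (SD, n = 3 each). The 13 erythroid markers summed to 27469 to 27916 FPKM in the combination, 4367 to 4644 FPKM with crenolanib, 216 to 222 FPKM with HPA-12 and 77.0 to 83.5 FPKM in DMSO, with 0 markers at 0 in the combination, at most 1 with crenolanib, 2 with HPA-12 and 2 or 3 in DMSO. The 9 markers of the myeloid line summed to 572 to 605 FPKM in the combination, 699 to 708 FPKM with crenolanib, 544 to 556 FPKM with HPA-12 and 801 to 810 FPKM in DMSO. These sums hid markers that moved apart. MPO read 417 to 446 FPKM in the combination, 342 to 349 with crenolanib, 15.2 to 16.4 with HPA-12 and 389 to 392 in DMSO. SPI1 read 52.6 to 61.3, 142 to 164, 243 to 264 and 230 to 238 FPKM in that order. FLT3, the defining kinase of the line's leukaemia, read 56.2 to 61.9, 126 to 135, 149 to 159 and 94.4 to 94.8 FPKM. The part of depth, mitochondrial share and erythroid RNA in the members' differences was not tested.

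In DMSO the highest members were CDC20 at 40.7 ± 2.16 FPKM and CCNB1 at 38.6 ± 0.842 FPKM (SD, n = 3), followed by UBE2C at 31.3 ± 2.50 and TPX2 at 27.5 ± 0.720 FPKM. CDC20 and CCNB1 libraries overlapped in level, while UBE2C lay below both and TPX2 below UBE2C. PLK1 at 16.4 ± 0.549 FPKM, CDC25B at 16.3 ± 0.591 FPKM, BIRC5 at 15.7 ± 0.715 FPKM and AURKA at 15.3 ± 0.964 FPKM followed, and in that order each overlapped the next. The lowest tested members were CENPE at 0.354 ± 0.0362 FPKM, ASPM at 0.713 ± 0.162 FPKM and KIF15 at 0.847 ± 0.0574 FPKM. Each was under 1 FPKM in every DMSO library and reached the level for testing only through treated libraries. A rise of these genes against DMSO was thus favoured in advance. The sum over the 42 members was highest with HPA-12, at 366 to 422 FPKM in the combination, 354 to 366 FPKM with crenolanib, 411 to 430 FPKM with HPA-12 and 369 to 372 FPKM in DMSO. The combination's range held the DMSO values, and the crenolanib libraries lay just below them. As a share of the FPKM of all genes not encoded in mitochondria, the order against DMSO differed: the members took 0.194 to 0.225% in the combination, 0.188 to 0.193% with crenolanib, 0.214 to 0.226% with HPA-12 and 0.177 to 0.181% in DMSO, where every treated library lay above every DMSO library.

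Against DMSO, mitosis genes did not move as a block. In the combination 15 of 40 tested members rose and 7 fell, where 12.4% and 50.1% of all genes tested did; the members' median difference was 0.22 and that of all genes -0.62. With crenolanib 20 rose and 14 fell, where 36.1% and 39.4% of all genes did, with medians of 0.23 and -0.04. With HPA-12 28 rose and 5 fell, where 43.2% and 34.5% of all genes did, with medians of 0.32 and 0.09. Members thus rose in larger shares than all genes in the 3 comparisons, at 37.5%, 50% and 70% in the same order. They fell at 17.5%, 35% and 12.5%, below the shares of all genes in the combination and with HPA-12. With crenolanib the 35% that fell was near the 39.4% of all genes. When the 12 libraries shared 1 fit, 13 of 40 members rose with HPA-12 and 2 fell, where 27.8% and 23% of all genes did. CENPE, ASPM and KIF15 are among the raised members in all 3. They were tested only through treated libraries, so their rises were favoured in advance. These comparisons use the same DMSO libraries, so their values stand side by side and do not bear on one another.

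The combination's count of lowered members depended on how the libraries were scaled. Setting the libraries by the median ratio over genes above 0 in all of them moved the median of all genes to -0.11 and that of the members to 0.88; 24 members then rose and 1 fell, where 21.9% and 26.2% of all genes did. Of all calls, raised genes made up 19.8% as deposited and 45.6% under median-ratio scaling. The members' median lay 0.84 above that of all genes as deposited and 0.99 above it under median-ratio scaling, so the members were high relative to other genes under both. All 15 members raised in the combination rose under both scalings, and of the 7 lowered only PLK1 fell under both. With the mitochondrially encoded genes left out of the library sums, 17 members rose and 4 fell, where 13.8% and 45.1% of all genes did. With crenolanib the 34 calls held under median-ratio scaling, and with HPA-12 25 raised and 5 lowered members did.

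**Figure D1:**
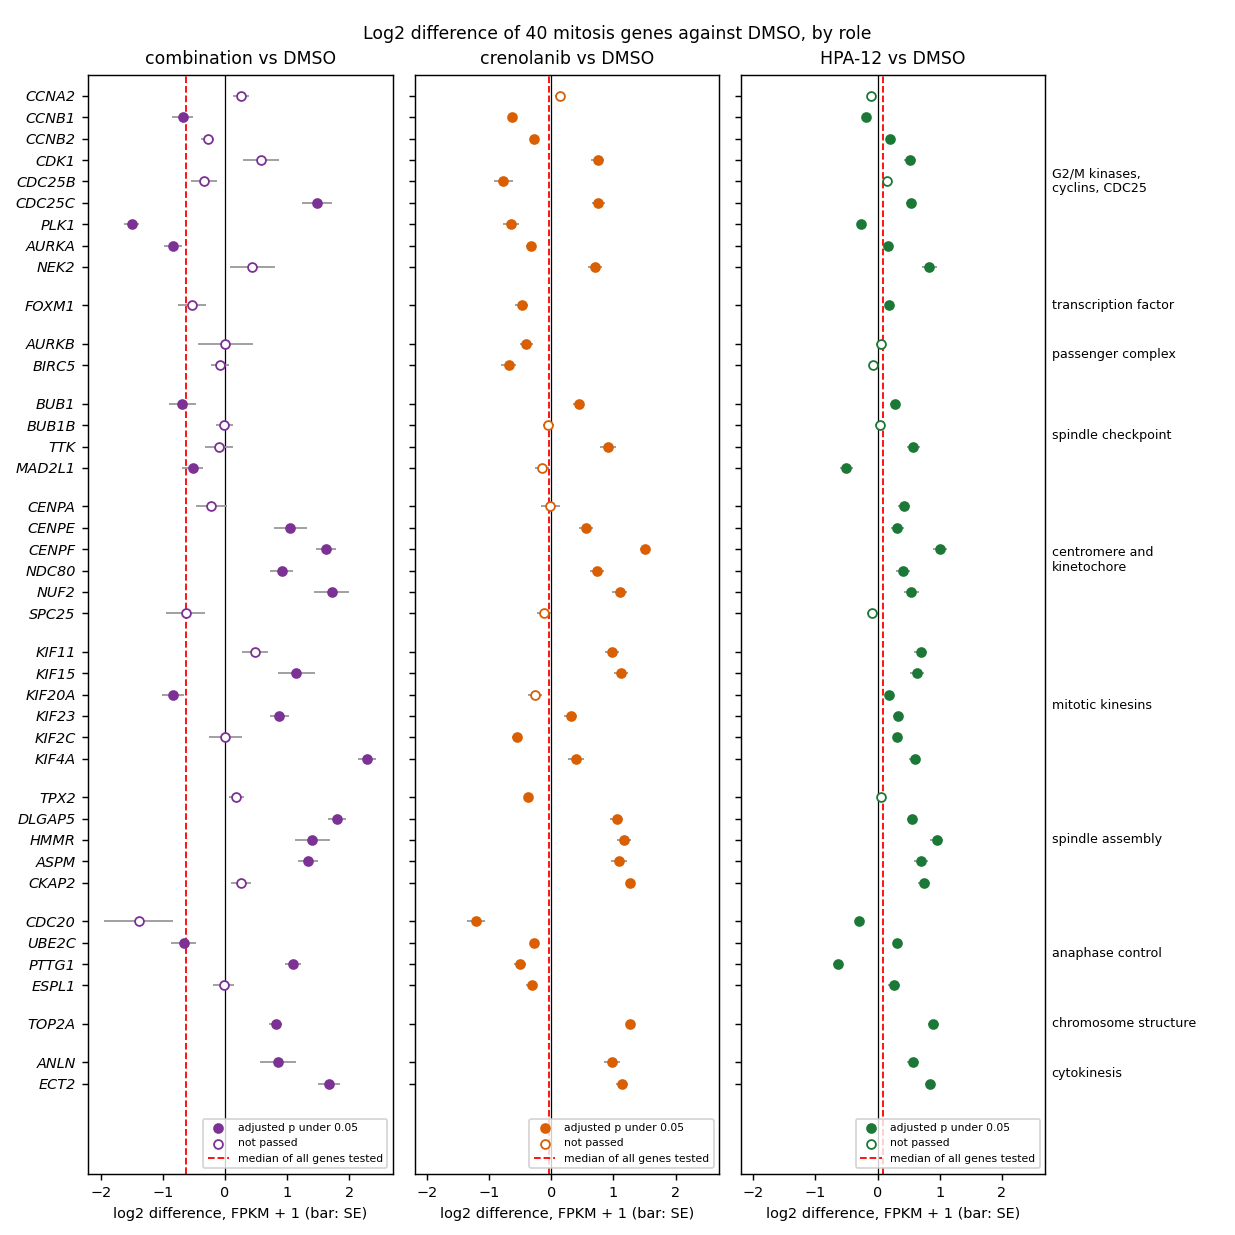
Log2 difference from DMSO (x axis, log2(FPKM + 1), bars are the SE) for the 40 tested members in rows by role, for the combination, crenolanib and HPA-12; filled points passed an adjusted p of 0.05 and the red dashed line is the median of all genes tested (-0.62, -0.04 and 0.09). Members of anaphase control lie left of 0 with crenolanib, kinesins lie right of 0 with HPA-12, and KIF4A at 2.29 and PLK1 at -1.5 are the extremes in the combination.

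Among the kinases, cyclins and phosphatases that start mitosis, cyclin B1 and PLK1 fell in all 3 treatments while CDK1 rose with each single agent, but the HPA-12 calls of all 3 genes were lost when the 12 libraries shared 1 fit (adjusted p = 0.307, 0.133 and 0.0743). With equal sums without mitochondrial genes the HPA-12 calls of CCNB1 and PLK1 were lost as well (adjusted p = 0.302 and 0.0634). With crenolanib 5 of the 9 genes fell and 3 rose (55.6% and 33.3%, against 39.4% and 36.1% of all genes). With HPA-12 2 fell and 5 rose (22.2% and 55.6%, against 34.5% and 43.2%). In the combination 3 fell and 1 rose (33.3% and 11.1%, against 50.1% and 12.4%). The raised shares with crenolanib and in the combination were thus near those of all genes. CCNB1, the cyclin that activates CDK1, had 28.8, 17.8 and 26.0 FPKM in the combination libraries, 23.1, 24.5 and 26.2 FPKM in the crenolanib libraries, 30.0, 34.5 and 37.2 FPKM in the HPA-12 libraries and 39.6, 38.2 and 38.0 FPKM in the DMSO libraries. Every treated library was below every DMSO library, and the combination and crenolanib libraries overlapped. The difference from DMSO was -0.68 ± 0.17 (adjusted p = 0.0128) in the combination, -0.63 ± 0.06 (adjusted p = 8.71e-06) with crenolanib and -0.19 ± 0.07 (adjusted p = 0.0292) with HPA-12. Under median-ratio scaling the combination's difference was -0.01 (adjusted p = 0.970), and the HPA-12 call was also lost with no filter on low values (adjusted p = 0.110) and when any DMSO library or HPA-12 library 1 was left out (adjusted p = 0.0556 to 0.0853).

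CDK1, the kinase itself, had 6.16, 12.7 and 5.50 FPKM in the combination libraries, 7.91, 9.12 and 9.01 FPKM in the crenolanib libraries, 6.75, 7.47 and 7.64 FPKM in the HPA-12 libraries and 4.80, 5.39 and 4.17 FPKM in the DMSO libraries. All 9 treated libraries were above the DMSO libraries, and combination library 2 stood apart from the other two. CDK1 rose by 0.74 ± 0.10 (adjusted p = 1.01e-04) with crenolanib and by 0.52 ± 0.09 (adjusted p = 3.64e-04) with HPA-12, while the combination's difference of 0.58 ± 0.29 did not pass (adjusted p = 0.129) as deposited and passed under median-ratio scaling (1.18, adjusted p = 0.0187) and with the 12 libraries in 1 fit (adjusted p = 0.0377). PLK1, the polo-like kinase of mitotic entry and spindle assembly, had 5.78, 5.05 and 4.66 FPKM in the combination libraries, 12.9, 8.68 and 9.17 FPKM in the crenolanib libraries, 15.1, 13.2 and 12.3 FPKM in the HPA-12 libraries and 16.1, 16.1 and 17.1 FPKM in the DMSO libraries. The combination libraries were the lowest, the DMSO libraries the highest, and the crenolanib and HPA-12 libraries overlapped between them. PLK1 fell by 1.5 ± 0.12 in the combination (adjusted p = 9.07e-05), by 0.65 ± 0.12 with crenolanib (adjusted p = 0.00100) and by 0.27 ± 0.07 with HPA-12 (adjusted p = 0.00633). Under median-ratio scaling it still fell in the combination, with a difference of -0.89 (adjusted p = 0.00159). A sequence annotated on the opposite strand covers 11.6% of PLK1's exonic bases, and whether the counting used strand is not given in the sources used here.

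AURKA, the Aurora kinase of centrosomes and spindle poles, had 6.75, 8.76 and 8.98 FPKM in the combination libraries, 12.6, 12.4 and 10.9 FPKM in the crenolanib libraries, 18.6, 16.5 and 16.8 FPKM in the HPA-12 libraries and 15.8, 14.1 and 15.9 FPKM in the DMSO libraries. The 4 groups did not overlap: the combination was lowest, then crenolanib, then DMSO, with HPA-12 highest. The differences from DMSO were -0.83 ± 0.14 (adjusted p = 0.00215) in the combination, -0.33 ± 0.08 (adjusted p = 0.00353) with crenolanib and 0.17 ± 0.07 (adjusted p = 0.0351) with HPA-12. Median-ratio scaling ended the call in the combination (-0.20, adjusted p = 0.307) and with HPA-12 (0.14, adjusted p = 0.121). The HPA-12 call was also lost without HPA-12 library 1 (adjusted p = 0.109), without DMSO library 2 (adjusted p = 0.140), with no filter on low values (adjusted p = 0.0830) or with the 12 libraries in 1 fit (adjusted p = 0.235). CDC25B, a phosphatase that starts CDK1 activation, had 9.26, 17.4 and 12.6 FPKM in the combination libraries, 12.8, 7.73 and 7.62 FPKM in the crenolanib libraries, 19.4, 16.7 and 18.5 FPKM in the HPA-12 libraries and 16.3, 16.9 and 15.7 FPKM in the DMSO libraries. It fell with crenolanib, by 0.77 ± 0.16 (adjusted p = 0.00181); the combination libraries were spread across the other groups and did not pass. CDC25C, which amplifies that activation, had 6.76, 7.23 and 3.79 FPKM in the combination libraries, 3.34, 3.29 and 2.66 FPKM in the crenolanib libraries, 2.27, 2.52 and 2.75 FPKM in the HPA-12 libraries and 1.45, 1.46 and 1.35 FPKM in the DMSO libraries. Every treated library was above the DMSO libraries, with the combination highest at 1.48 ± 0.24 (adjusted p = 0.00170), against 0.76 ± 0.10 (adjusted p = 1.35e-04) for crenolanib and 0.54 ± 0.08 (adjusted p = 1.56e-04) for HPA-12.

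The remaining genes of this role moved in different ways. CCNB2, a second B-type cyclin, fell with crenolanib by 0.27 ± 0.06 (adjusted p = 0.00372) and rose with HPA-12 by 0.19 ± 0.06 (adjusted p = 0.0101). NEK2, a centrosome kinase, rose by 0.70 ± 0.11 (adjusted p = 2.44e-04) with crenolanib and by 0.84 ± 0.11 (adjusted p = 6.16e-05) with HPA-12. CCNA2, the cyclin of S phase and G2, passed in none of the 3 comparisons as deposited, with differences of 0.26 in the combination, 0.14 with crenolanib and -0.10 with HPA-12. Under median-ratio scaling the combination's differences were 0.91 for CCNA2 (adjusted p = 0.00172) and 0.36 for CCNB2 (adjusted p = 0.0333), and both rose.

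FOXM1, the transcription factor that drives many of the other members, had 11.2, 6.58 and 6.01 FPKM in the combination libraries, 7.11, 7.29 and 9.73 FPKM in the crenolanib libraries, 14.3, 12.8 and 12.6 FPKM in the HPA-12 libraries and 11.4, 11.8 and 11.3 FPKM in the DMSO libraries. The crenolanib libraries were below DMSO and the HPA-12 libraries above it, and combination library 1 lay just under the DMSO libraries while the other two lay well below. FOXM1 fell by 0.48 ± 0.11 with crenolanib (adjusted p = 0.00271) and rose by 0.19 ± 0.06 (adjusted p = 0.0194) with HPA-12. The HPA-12 call was lost under median-ratio scaling (adjusted p = 0.0705), with the 12 libraries in 1 fit (adjusted p = 0.432) and without HPA-12 library 1, DMSO library 1 or DMSO library 3 (adjusted p = 0.0523 to 0.0618). In the combination its difference was -0.53 ± 0.22 (adjusted p = 0.0735), and without combination library 1 it was -0.78 (adjusted p = 0.00140); it passed with the 12 libraries in 1 fit (adjusted p = 0.0227). ITFG2 overlaps 15.9% of its exonic bases on the opposite strand.

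Both tested genes of the chromosomal passenger complex, which corrects faulty attachments and steers cytokinesis, fell with crenolanib, where 39.4% of all genes fell. They passed in neither other comparison with DMSO as deposited. BIRC5 (survivin) had 13.0, 13.8 and 18 FPKM in the combination libraries, 8.18, 8.42 and 11.9 FPKM in the crenolanib libraries, 15.9, 14.0 and 14.4 FPKM in the HPA-12 libraries and 15.2, 15.3 and 16.5 FPKM in the DMSO libraries. The crenolanib libraries lay below those of all 3 other groups, at -0.68 ± 0.12 (adjusted p = 6.95e-04) against DMSO. In the combination BIRC5 differed from DMSO by -0.08 as deposited and rose under median-ratio scaling (0.58, adjusted p = 0.0179). AURKB, the kinase of the complex, fell by 0.40 ± 0.10 with crenolanib (adjusted p = 0.00632); its combination libraries ran from 4.36 to 18.7 FPKM.

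Spindle checkpoint genes moved apart from each other. BUB1, a kinetochore kinase of the checkpoint, had 4.07, 2.16 and 3.86 FPKM in the combination libraries, 8.94, 7.53 and 8.52 FPKM in the crenolanib libraries, 6.74, 7.87 and 7.43 FPKM in the HPA-12 libraries and 5.55, 6.45 and 5.65 FPKM in the DMSO libraries. The combination libraries were below DMSO, and the crenolanib and HPA-12 libraries above it. BUB1 fell by 0.69 ± 0.22 in the combination (adjusted p = 0.0306), and rose by 0.44 ± 0.09 (adjusted p = 0.00156) with crenolanib and by 0.28 ± 0.08 (adjusted p = 0.00958) with HPA-12. The combination's call was lost under median-ratio scaling (-0.13, adjusted p = 0.685), with mitochondrial genes left out of the sums (adjusted p = 0.0622), with no filter on low values (adjusted p = 0.0587), with a replicate block (adjusted p = 0.0589) and without any 1 of the 3 DMSO libraries (adjusted p = 0.0829 to 0.116). The HPA-12 call was lost with the 12 libraries in 1 fit (adjusted p = 0.192). TTK (MPS1), the kinase at the head of the checkpoint, had 0.794, 1.94 and 1.33 FPKM in the combination libraries, 4.36, 3.23 and 3.5 FPKM in the crenolanib libraries, 2.46, 2.84 and 2.75 FPKM in the HPA-12 libraries and 1.48, 1.79 and 1.19 FPKM in the DMSO libraries. It rose by 0.92 ± 0.13 (adjusted p = 1.55e-04) with crenolanib and by 0.58 ± 0.10 (adjusted p = 4.03e-04) with HPA-12, while the combination libraries overlapped DMSO. MAD2L1 (MAD2), which holds CDC20, had 2.8, 2.50 and 3.66 FPKM in the combination libraries, 3.93, 3.58 and 4.90 FPKM in the crenolanib libraries, 2.54, 3.5 and 3.03 FPKM in the HPA-12 libraries and 5.11, 4.67 and 4.30 FPKM in the DMSO libraries. The combination and HPA-12 libraries were below DMSO, with differences of -0.52 ± 0.17 (adjusted p = 0.0353) and -0.51 ± 0.10 (adjusted p = 0.00108); the combination's was 0.03 under median-ratio scaling. BUB1B (BUBR1) passed in none of the 3 comparisons as deposited, with differences from -0.05 to 0.04, and rose in the combination under median-ratio scaling (0.61, adjusted p = 0.0135).

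Centromere and kinetochore genes were among the members that rose most. In the combination 4 of 6 rose, with crenolanib 4 and with HPA-12 5, and none fell. Among all genes tested 12.4%, 36.1% and 43.2% rose in that order, and 50.1%, 39.4% and 34.5% fell. CENPF, a large kinetochore protein, had 9.33, 8.96 and 7.13 FPKM in the combination libraries, 7.76, 7.95 and 7.34 FPKM in the crenolanib libraries, 4.23, 6.29 and 5.01 FPKM in the HPA-12 libraries and 1.88, 2.14 and 2.15 FPKM in the DMSO libraries. All treated libraries stood above DMSO, and the combination and crenolanib libraries overlapped above HPA-12. Its differences were 1.62 ± 0.16 (adjusted p = 1.96e-04) in the combination, 1.51 ± 0.08 (adjusted p = 3.71e-07) with crenolanib and 1.00 ± 0.12 (adjusted p = 1.86e-05) with HPA-12. NUF2, a subunit of the NDC80 complex that grips microtubules, had 11.3, 5.75 and 5.56 FPKM in the combination libraries, 4.46, 4.14 and 4.38 FPKM in the crenolanib libraries, 2.20, 2.62 and 3.1 FPKM in the HPA-12 libraries and 1.62, 1.14 and 1.75 FPKM in the DMSO libraries. The 4 groups did not overlap and ran from DMSO through HPA-12 and crenolanib to the combination. NUF2 rose by 1.71 ± 0.28 (adjusted p = 0.00180) in the combination, by 1.10 ± 0.11 (adjusted p = 2.01e-05) with crenolanib and by 0.54 ± 0.12 (adjusted p = 0.00189) with HPA-12. NDC80, its partner in the complex, rose in all 3, by 0.91, 0.74 and 0.40 in the same order (adjusted p = 0.00547, 2.57e-04 and 0.00670). SPC25, another subunit of that complex, passed in none, with differences of -0.64, -0.12 and -0.08. CENPE, a kinetochore motor, rose in all 3 from the lowest DMSO level of the tested members, by 1.05, 0.55 and 0.32 (adjusted p = 0.0132, 0.00163 and 0.0191). Its DMSO libraries were all under 1 FPKM, so it was tested only through treated libraries and a rise was favoured in advance. CENPA, the centromere's histone, rose with HPA-12, by 0.42 ± 0.10 (adjusted p = 0.00244).

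All 6 mitotic kinesins rose with HPA-12, by 0.18 to 0.69, where 43.2% of all genes rose. Under median-ratio scaling 5 of them rose, where 41.7% of all genes did. With crenolanib 4 rose and 1 fell, where 36.1% and 39.4% of all genes did. In the combination 3 rose and 1 fell, where 12.4% and 50.1% did. KIF4A, a chromosome-bound motor of the central spindle, had 21.9, 18.9 and 19.0 FPKM in the combination libraries, 4.15, 5.63 and 4.26 FPKM in the crenolanib libraries, 5.35, 5.80 and 5.30 FPKM in the HPA-12 libraries and 3.32, 2.88 and 3.69 FPKM in the DMSO libraries. The combination libraries were more than 3 times as high as any library of the other groups. KIF4A rose by 2.29 ± 0.14 (adjusted p = 2.38e-05) in the combination, by 0.40 ± 0.12 (adjusted p = 0.0152) with crenolanib and by 0.60 ± 0.09 (adjusted p = 1.20e-04) with HPA-12. Its near-identical copy KIF4B was listed at no more than 0.829 FPKM, but reads shared between the copies cannot be placed. KIF20A, which carries the passenger complex to the midzone, had 4.54, 3.89 and 2.82 FPKM in the combination libraries, 6.58, 4.83 and 6.58 FPKM in the crenolanib libraries, 8.88, 8.46 and 8.18 FPKM in the HPA-12 libraries and 7.75, 7.31 and 7.06 FPKM in the DMSO libraries. The 4 groups did not overlap, with the combination lowest and HPA-12 highest. KIF20A differed from DMSO by -0.83 ± 0.18 (adjusted p = 0.00604) in the combination, which was -0.26 under median-ratio scaling (adjusted p = 0.294), by -0.27 ± 0.11 (adjusted p = 0.0513) with crenolanib and by 0.18 ± 0.07 (adjusted p = 0.0260) with HPA-12.

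KIF2C (MCAK), which takes microtubules apart at the centromere, had 8.79, 19.8 and 12.6 FPKM in the combination libraries, 9.35, 7.47 and 8.81 FPKM in the crenolanib libraries, 16.8, 15.9 and 16.3 FPKM in the HPA-12 libraries and 12.9, 12.5 and 13.4 FPKM in the DMSO libraries. The crenolanib libraries were below DMSO, the HPA-12 libraries above it, and the combination libraries overlapped all 3 other groups. It fell with crenolanib by 0.55 ± 0.08 (adjusted p = 2.64e-04) and rose with HPA-12 by 0.31 ± 0.05 (adjusted p = 3.37e-04). KIF11 (Eg5), which separates the spindle poles, rose by 0.97 with crenolanib and 0.69 with HPA-12 (adjusted p = 3.85e-05 and 1.64e-04), and its combination difference of 0.48 did not pass as deposited but did under median-ratio scaling (1.06, adjusted p = 0.00704). KIF15, which works beside KIF11, rose by 1.15 in the combination, 1.12 with crenolanib and 0.64 with HPA-12 (adjusted p = 0.0134, 1.32e-05 and 3.53e-04). Like CENPE, KIF15 was tested only through treated libraries, so a rise was favoured in advance. KIF23, a motor of the midzone, rose by 0.88, 0.31 and 0.33 in the same order (adjusted p = 0.00300, 0.0217 and 0.00568).

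Apart from TPX2, the tested spindle assembly genes rose together with crenolanib, where 36.1% of all genes rose. DLGAP5 (HURP), which stabilises kinetochore fibres, had 9.60, 9.54 and 9.19 FPKM in the combination libraries, 4.64, 5.28 and 5.78 FPKM in the crenolanib libraries, 3.22, 3.64 and 3.35 FPKM in the HPA-12 libraries and 2.10, 1.78 and 2.12 FPKM in the DMSO libraries. The 4 groups were separate and in the order DMSO, HPA-12, crenolanib, combination. DLGAP5 rose by 1.80 ± 0.14 (adjusted p = 6.71e-05) in the combination, by 1.05 ± 0.10 (adjusted p = 1.31e-05) with crenolanib and by 0.55 ± 0.09 (adjusted p = 1.5e-04) with HPA-12. HMMR (RHAMM), a spindle-pole protein, had 4.33, 7.88 and 9.51 FPKM in the combination libraries, 5.48, 5.68 and 6.07 FPKM in the crenolanib libraries, 4.73, 5.02 and 4.60 FPKM in the HPA-12 libraries and 2.48, 1.82 and 1.72 FPKM in the DMSO libraries. All treated libraries were above DMSO, with differences of 1.41 ± 0.28 (adjusted p = 0.00425) in the combination, 1.17 ± 0.11 (adjusted p = 1.16e-05) with crenolanib and 0.95 ± 0.10 (adjusted p = 1.07e-05) with HPA-12. ASPM, which focuses the spindle poles, rose by 1.34, 1.08 and 0.70 in the same order (adjusted p = 5.07e-04, 5.34e-05 and 1.38e-04). Like CENPE, ASPM was tested only through treated libraries, so a rise was favoured in advance. CKAP2, a microtubule-stabilising protein, had 10.2, 15.9 and 12.7 FPKM in the combination libraries, 25.2, 27.2 and 28.0 FPKM in the crenolanib libraries, 14.9, 21.0 and 19.6 FPKM in the HPA-12 libraries and 10.4, 10.4 and 10.7 FPKM in the DMSO libraries. The crenolanib libraries were highest and the HPA-12 libraries next, while the combination libraries overlapped those of HPA-12 and DMSO. CKAP2 rose by 1.27 ± 0.06 (adjusted p = 1.34e-07) with crenolanib and by 0.75 ± 0.10 (adjusted p = 6.04e-05) with HPA-12, and differed by 0.25 ± 0.17 (adjusted p = 0.221) in the combination, where it rose under median-ratio scaling (0.90, adjusted p = 0.00565). TPX2, the activator of Aurora A, had 26.7, 36.5 and 31.4 FPKM in the combination libraries, 22.7, 20.3 and 19.7 FPKM in the crenolanib libraries, 28.2, 30.0 and 27.6 FPKM in the HPA-12 libraries and 27.0, 28.3 and 27.1 FPKM in the DMSO libraries. The crenolanib libraries lay below those of the other groups, at -0.38 ± 0.06 (adjusted p = 4.57e-04) against DMSO, and neither other treatment passed as deposited; the combination rose under median-ratio scaling (0.86, adjusted p = 0.00196).

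All 4 anaphase control genes fell with crenolanib, where 39.4% of all genes fell. CDC20, the activator of the anaphase-promoting complex, had 4.97, 26.4 and 23.7 FPKM in the combination libraries, 12.6, 18.6 and 20.5 FPKM in the crenolanib libraries, 34.8, 33.3 and 30.8 FPKM in the HPA-12 libraries and 40.6, 38.6 and 42.9 FPKM in the DMSO libraries. Every treated library was below every DMSO library, the HPA-12 libraries lay above the crenolanib libraries, and combination library 1 was far below the other two. CDC20 fell by 1.22 ± 0.14 with crenolanib (adjusted p = 4.97e-05) and by 0.30 ± 0.06 with HPA-12 (adjusted p = 7.62e-04), and the HPA-12 call was lost with the 12 libraries in 1 fit (adjusted p = 0.601). In the combination the difference was -1.39 ± 0.55 (adjusted p = 0.0638), and -0.68 (adjusted p = 0.00155) without combination library 1 or -1.78 (adjusted p = 0.0426) without combination library 2. It passed with a replicate block (adjusted p = 0.0263) and with the 12 libraries in 1 fit (adjusted p = 0.0135). UBE2C, the ubiquitin-conjugating enzyme of that complex, had 14.0, 21.5 and 24 FPKM in the combination libraries, 25.9, 24.4 and 26.8 FPKM in the crenolanib libraries, 38.9, 38.5 and 40.03 FPKM in the HPA-12 libraries and 33.7, 31.6 and 28.7 FPKM in the DMSO libraries. The groups did not overlap, in the order combination, crenolanib, DMSO, HPA-12 from low to high. Its differences from DMSO were -0.67 ± 0.20 (adjusted p = 0.0231) in the combination, -0.27 ± 0.07 (adjusted p = 0.00493) with crenolanib and 0.32 ± 0.06 (adjusted p = 5.49e-04) with HPA-12; the combination's was 0.00 under median-ratio scaling.

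PTTG1 (securin), the inhibitor of separase, had 33.5, 25.4 and 31.8 FPKM in the combination libraries, 9.61, 10.2 and 8.01 FPKM in the crenolanib libraries, 9.12, 7.77 and 8.12 FPKM in the HPA-12 libraries and 12.8, 14.6 and 13.3 FPKM in the DMSO libraries. The combination libraries were above DMSO, and the crenolanib and HPA-12 libraries were below it. PTTG1 rose by 1.09 ± 0.13 (adjusted p = 4.56e-04) in the combination, and fell by 0.51 ± 0.09 with crenolanib (adjusted p = 8.18e-04) and by 0.64 ± 0.07 with HPA-12 (adjusted p = 1.68e-05). Its copy PTTG2 was listed at no more than 0.402 FPKM. ESPL1, the separase it inhibits, fell with crenolanib by 0.32 ± 0.09 (adjusted p = 0.0104), rose with HPA-12 by 0.27 ± 0.09 (adjusted p = 0.0209) and differed by -0.02 in the combination, where it rose under median-ratio scaling (0.55, adjusted p = 0.0366).

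TOP2A, the topoisomerase that untangles sister chromatids, had 18.7, 17.0 and 17.8 FPKM in the combination libraries, 23.3, 25.1 and 25.7 FPKM in the crenolanib libraries, 17.3, 21.9 and 17.9 FPKM in the HPA-12 libraries and 9.49, 10.2 and 9.39 FPKM in the DMSO libraries. All treated libraries were above DMSO and the crenolanib libraries above the rest. Its differences were 0.82 ± 0.11 (adjusted p = 6.16e-04) in the combination, 1.26 ± 0.06 (adjusted p = 2.02e-07) with crenolanib and 0.90 ± 0.08 (adjusted p = 3.24e-06) with HPA-12. ECT2, the exchange factor that switches on RhoA at the cleavage plane, had 10.4, 8.82 and 13.2 FPKM in the combination libraries, 6.63, 7.85 and 6.64 FPKM in the crenolanib libraries, 5.38, 6.05 and 5.15 FPKM in the HPA-12 libraries and 2.62, 2.73 and 2.58 FPKM in the DMSO libraries. The 4 groups were separate and again ran from DMSO through HPA-12 and crenolanib to the combination, with differences of 1.68 ± 0.18 (adjusted p = 2.44e-04), 1.14 ± 0.09 (adjusted p = 3.33e-06) and 0.84 ± 0.08 (adjusted p = 4.34e-06) for the combination, crenolanib and HPA-12. ANLN, the scaffold of the contractile ring, rose by 0.85, 0.97 and 0.57 in the same order (adjusted p = 0.0382, 1.01e-04 and 2.8e-04).

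**Figure D2:**
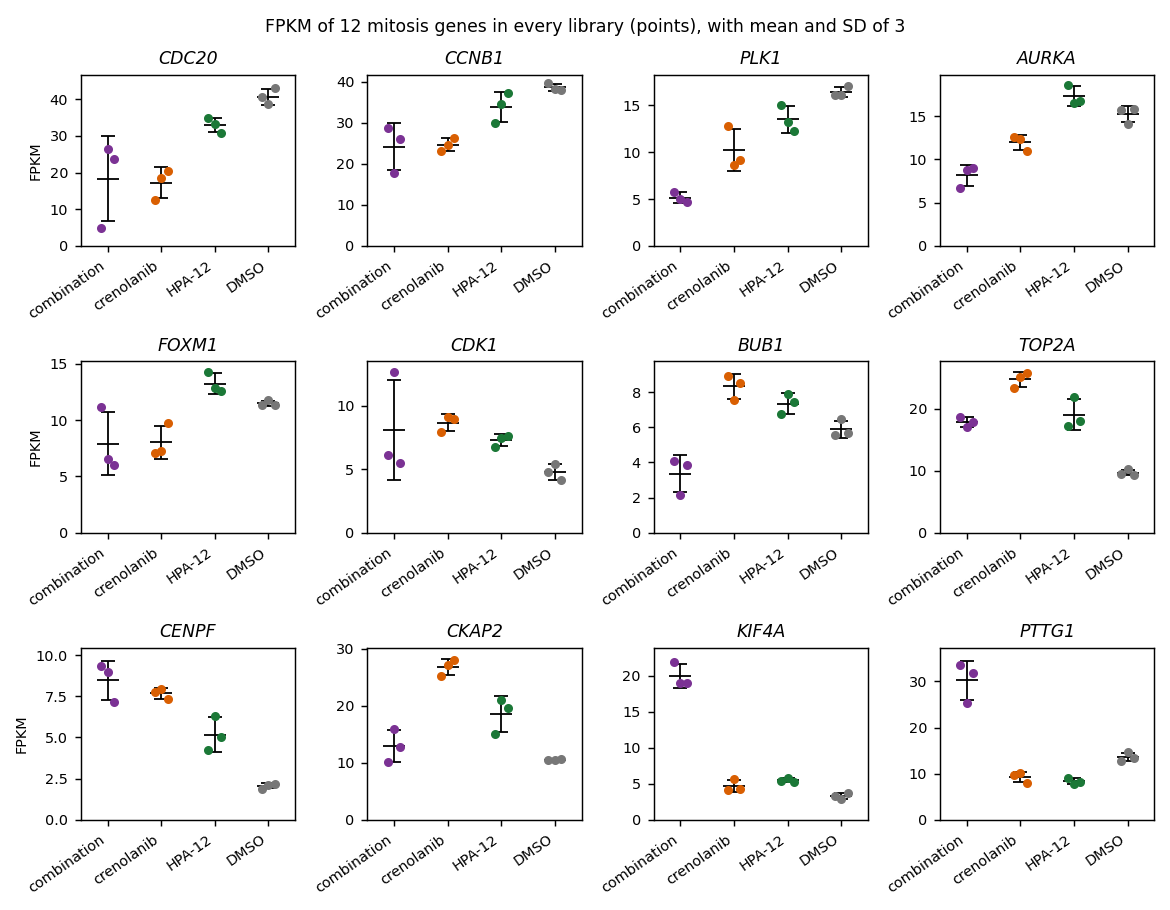
FPKM (y axis, from 0) of 12 members in each library (points) with the mean and SD of the 3 libraries of each group, in the order combination, crenolanib, HPA-12 and DMSO. CDC20, CCNB1 and PLK1 are lower in every treated library than in DMSO, CENPF and TOP2A are higher, and KIF4A and PTTG1 stand above the other groups in the combination alone.

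Adding HPA-12 to crenolanib raised some members and lowered others. In the combination against crenolanib alone 8 of 40 members rose and 6 fell, where 6.79% and 47.3% of all genes did, with a median of 0.03 for the members and -0.63 for all genes. Raised calls were 12.5% of all calls as deposited and 51.9% under median-ratio scaling, where 19 members rose and none fell. Of all genes 14.0% rose and 13.0% fell under that scaling. KIF4A rose by 1.89 ± 0.16 (adjusted p = 1.31e-04), PTTG1 by 1.60 ± 0.15 (adjusted p = 2.19e-04), DLGAP5 by 0.75 ± 0.15 (adjusted p = 0.00517) and CDC25C by 0.72 ± 0.25 (adjusted p = 0.0425); the CDC25C call was lost in 5 of the 6 fits without a library (adjusted p = 0.0920 to 0.141), with no filter on low values (adjusted p = 0.0846), with a pseudocount of 0.1 (adjusted p = 0.0504) and with the GC and length correction described below (adjusted p = 0.0505). BIRC5, TPX2, KIF23 and ECT2 made up the other raised calls, by 0.61, 0.56, 0.56 and 0.54. BUB1 fell by 1.12 ± 0.23 (adjusted p = 0.00506), TTK by 1.02 ± 0.25 (adjusted p = 0.0107), CKAP2 by 1.02 ± 0.16 (adjusted p = 0.00196) and PLK1 by 0.85 ± 0.19 (adjusted p = 0.00791). Under median-ratio scaling these 4 differences were -0.57, -0.58, -0.37 and -0.25 and none passed. Without crenolanib library 1 the TTK call was lost (adjusted p = 0.0538). AURKA, also lowered as deposited (-0.51 ± 0.16, adjusted p = 0.0280), was 0.11 under median-ratio scaling and lost its call without any 1 of the crenolanib libraries (adjusted p = 0.0617 to 0.108) and with a replicate block (adjusted p = 0.0633). TOP2A, lowered by 0.45 ± 0.10 (adjusted p = 0.00935), was 0.21 under median-ratio scaling and lost its call without crenolanib library 3 (adjusted p = 0.0505).

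Adding crenolanib to HPA-12 gave 10 raised and 8 lowered members, where 11.9% and 50.6% of all genes rose and fell, with medians of -0.05 and -0.64. Raised calls were 19.1% of all calls as deposited and 47.5% under median-ratio scaling, where 19 members rose and 1 fell. Of all genes 22.0% rose and 24.3% fell under that scaling. PTTG1 rose by 1.73 ± 0.14 (adjusted p = 6.46e-05), KIF4A by 1.69 ± 0.13 (adjusted p = 4.55e-05), DLGAP5 by 1.25 ± 0.14 (adjusted p = 2.83e-04) and NUF2 by 1.17 ± 0.28 (adjusted p = 0.00827). PLK1 fell by 1.24 ± 0.15 (adjusted p = 3.57e-04) and was the member that also fell under median-ratio scaling, at -0.60 (adjusted p = 0.0181). KIF20A at -1.02 ± 0.18, AURKA at -1.0 ± 0.15, UBE2C at -0.98 ± 0.19 and BUB1 at -0.96 ± 0.22 fell as deposited (adjusted p = 0.00247, 8.59e-04, 0.00335 and 0.00744) and were -0.41, -0.34, -0.28 and -0.37 under median-ratio scaling, where none passed. FOXM1 fell by 0.72 ± 0.22 (adjusted p = 0.0263) and was -0.06 under that scaling; its call was lost in 5 of the 6 fits without a library (adjusted p = 0.0659 to 0.0921), with no filter on low values (adjusted p = 0.0618) and with the GC and length correction (adjusted p = 0.165). The NUF2 call was lost with that correction (0.66, adjusted p = 0.0669). These counts and those of the comparison with crenolanib use the same combination libraries.

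Between the single agents, crenolanib left 13 members higher and 15 lower than HPA-12, where 29.0% and 35.1% of all genes rose and fell, with medians of 0.06 and -0.05. Both counts were near the shares of all genes, at 32.5% and 37.5% of the tested members. The lower ones included 3 of the 4 anaphase control genes, 5 of the 9 kinases, cyclins and phosphatases, FOXM1 and both passenger genes. CDC25B fell by 0.92 ± 0.16, CDC20 by 0.92 ± 0.14, KIF2C by 0.87 ± 0.09 and FOXM1 by 0.66 ± 0.11 (adjusted p = 6.77e-04, 3.12e-04, 1.83e-05 and 5.88e-04). The largest rises were those of NUF2 at 0.56 ± 0.12 (adjusted p = 0.00208), CKAP2 at 0.52 ± 0.11 (adjusted p = 0.00203), CENPF at 0.50 ± 0.12 (adjusted p = 0.00467) and DLGAP5 at 0.50 ± 0.11 (adjusted p = 0.00231). CCNB1 at -0.44, AURKA at -0.50 and PLK1 at -0.39 were lower with crenolanib (adjusted p = 0.00103, 4.14e-04 and 0.0278), the PLK1 call being lost without crenolanib library 2 or 3 or HPA-12 library 1 or 2 (adjusted p = 0.0570 to 0.110) and with no filter on low values (adjusted p = 0.114). With the 12 libraries in 1 fit the calls of CDC20 and NUF2 were lost (adjusted p = 0.115 and 0.0619). TOP2A was higher by 0.37 ± 0.09 (adjusted p = 0.00482), and BUB1 did not pass (0.16).

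Whether the combination departed from the sum of the single agents was tested as the interaction, the combination minus crenolanib minus HPA-12 plus DMSO on the log2 scale. Of 40 members 4 were above the sum and 11 below it, where 15.5% and 50.1% of all genes were, with medians of -0.23 and -0.65. Raised calls were 23.6% of all calls as deposited and 46.8% under median-ratio scaling, where 15 members were above and 4 below and the members' median turned to 0.39. Of all genes 26.0% were above and 29.5% below under that scaling, with a median of -0.12. The 8 members that passed in the same direction under both scalings were PTTG1 at 2.24 ± 0.18 (adjusted p = 6.24e-07), KIF4A at 1.29 ± 0.18 (adjusted p = 6.57e-05), BIRC5 at 0.69 ± 0.21 (adjusted p = 0.0118) and TPX2 at 0.51 ± 0.15 (adjusted p = 0.00907) above the sum, and CKAP2 at -1.77 ± 0.21 (adjusted p = 1.84e-05), TTK at -1.59 ± 0.26 (adjusted p = 2.09e-04), BUB1 at -1.40 ± 0.24 (adjusted p = 2.88e-04) and TOP2A at -1.35 ± 0.14 (adjusted p = 5.30e-06) below it. PTTG1 fell with each agent alone and rose with both, and BUB1 rose with each agent alone and fell with both as deposited. TTK and CKAP2 rose with each agent alone, and with both their libraries overlapped DMSO as deposited; under median-ratio scaling CKAP2 rose with both (0.90). Under median-ratio scaling the 8 differences were 2.91, 1.96, 1.35, 1.20, -1.08, -1.10, -0.81 and -0.65 in that order. PLK1 at -0.59 ± 0.20 (adjusted p = 0.0206) and AURKA at -0.68 ± 0.16 (adjusted p = 0.00289) were below the sum as deposited and were 0.04 and -0.03 under median-ratio scaling. The PLK1 call was lost without HPA-12 library 1 (adjusted p = 0.0549). It was also lost with 1 weight for each group, which lets the groups differ in spread (adjusted p = 0.0758). CCNB1 at 0.14, CDK1 at -0.69, FOXM1 at -0.24 and CDC20 at 0.13 did not pass with all libraries as deposited; CCNB1 was 0.83 above the sum under median-ratio scaling (adjusted p = 0.00494). Without combination library 1 CDC20 was 0.83 above the sum (adjusted p = 0.00491) and FOXM1 -0.48 (adjusted p = 0.0228), and without combination library 2 CCNB1 was 0.34 (adjusted p = 0.0330) and CDK1 -1.02 (adjusted p = 1.81e-04).

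**Figure D3:**
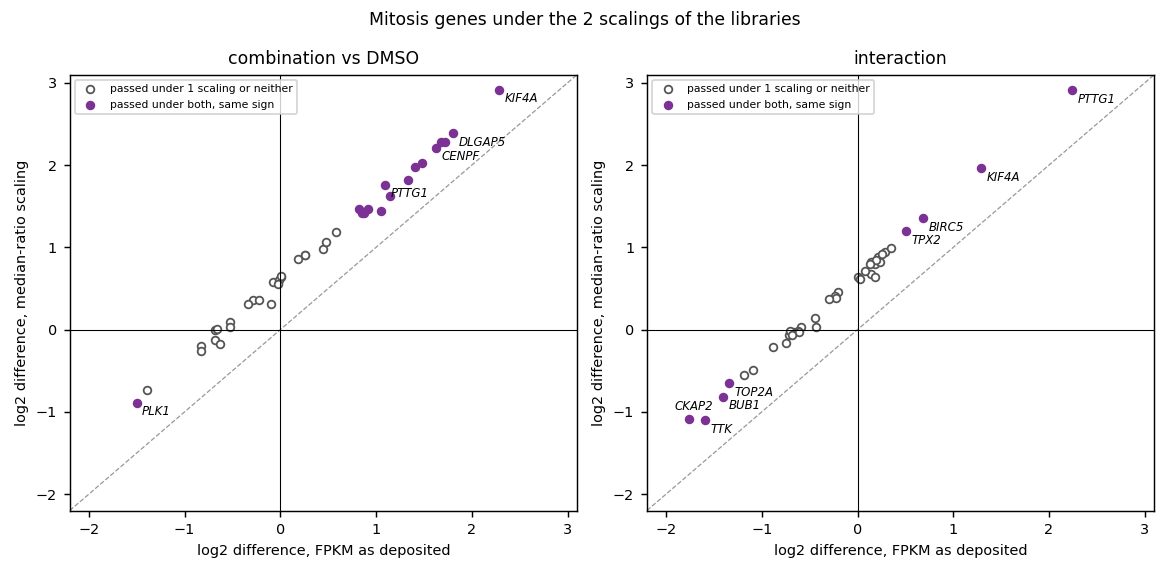
Log2 difference with FPKM as deposited (x axis) and under median-ratio scaling (y axis) of the 40 tested members, for the combination against DMSO and for the interaction; the dashed line marks equal values. Points lie above the line, and filled points, which passed under both scalings with the same sign, include KIF4A (2.29 and 2.91) and PLK1 (-1.5 and -0.89) on the left and PTTG1 (2.24 and 2.91) and CKAP2 (-1.77 and -1.08) on the right.

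The members' differences followed the GC content of their transcripts. GC content of the longest coding transcript in GENCODE release 29 ran from 35.3% for CENPE to 59.3% for CDC25B. Across the 40 tested members Spearman's rho between GC content and the difference from DMSO was -0.57 in the combination, -0.84 with crenolanib and -0.61 with HPA-12. Across the 11118 tested genes with a transcript it was -0.39, -0.51 and -0.21 in the same order, so the relation was not limited to mitosis genes; genes share libraries and are not independent points. With crenolanib 18 of the 24 members at or under 44.6% GC rose and 2 fell, while all 6 members above 55.1% GC fell (CDC20, CDC25B, PLK1, ESPL1, FOXM1 and AURKB). Of all tested genes in those classes, 2423 of 3706 rose at the low end and 2324 of 3706 fell at the high end. In the combination 12 of the 24 low-GC members rose, where 655 of 3706 genes did, and 1 of the 6 high-GC members fell, where 2378 of 3706 did. With HPA-12 19 of the 24 rose, where 1983 of 3706 genes did, and of the 6 high-GC members 2 rose and 2 fell, where 1270 and 1637 of 3706 did. Against HPA-12, crenolanib left 13 of the 24 low-GC members higher, where 1729 of 3706 genes were. All 6 high-GC members were lower, where 1999 of 3706 genes were.

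**Figure D4:**
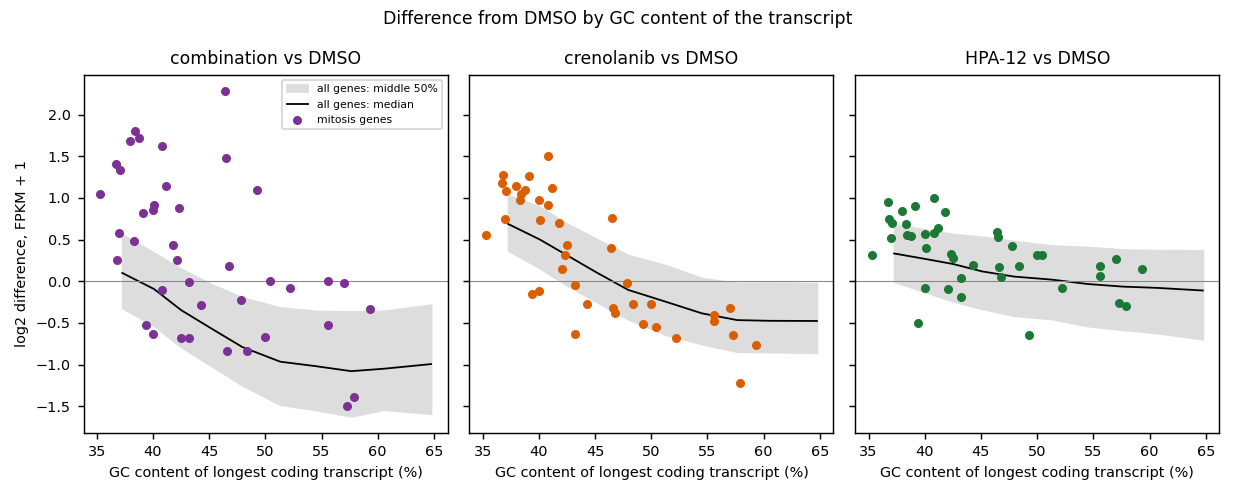
Log2 difference from DMSO (y axis, log2(FPKM + 1)) against the GC content of the longest coding transcript (x axis, percent) for the 40 members (points), with the median (line) and middle 50% (grey band) of all tested genes, for the combination, crenolanib and HPA-12. With crenolanib the members descend with GC content along the band (rho -0.84), and in the combination the members under 44.6% GC have a median of 0.70, against -0.14 for all genes of that class.

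A correction of each library for GC content and transcript length, chosen after seeing the data, left part of the pattern. With crenolanib 13 members then rose and 17 fell, where 25.7% and 42.6% of all genes did, so the count that fell was near that share. The members' median was -0.11 and that of all genes -0.14. CDC20 at -0.90, CCNB1 at -0.89, BIRC5 at -0.51 and PLK1 at -0.34 still fell (adjusted p = 4.43e-04, 1.11e-06, 0.00504 and 0.0356), and CENPF at 0.75, CKAP2 at 0.50 and TOP2A at 0.52 still rose (adjusted p = 3.30e-05, 5.43e-05 and 5.34e-05). The calls for CDK1 (0.17), BUB1 (0.04), FOXM1 (-0.21), AURKB (-0.16), ESPL1 (-0.11), KIF11, KIF23, KIF4A and ASPM were lost, and CENPE turned to -0.55 (adjusted p = 0.00181). With HPA-12 26 members rose and 6 fell, where 40.7% and 37.8% of all genes did. The calls for PLK1 (-0.14), BUB1 (0.12), KIF23 and ASPM were lost, and CENPE turned to -0.20 (adjusted p = 0.0443). In the combination 9 rose and 10 fell, where 9.52% and 56.3% of all genes did. KIF4A at 2.26, PTTG1 at 0.78 and PLK1 at -1.21 were among those that passed. The calls for TOP2A (0.19), CENPE, NDC80, KIF15, HMMR and ANLN were lost. Between crenolanib and HPA-12 no member was then higher and 20 were lower, where 22.4% and 38.3% of all genes were. NUF2 at 0.19, CKAP2 at 0.05, CENPF at 0.18 and DLGAP5 at 0.10 no longer passed, and CDK1 was at -0.21 (adjusted p = 0.0351). The correction also removes any difference of biological origin that goes with GC content, and which part is technical was not tested.

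Other genes of the pathway, from lists that hold none of the members, gave the setting. Of 17 other G2/M control genes 6 rose and 4 fell in the combination, 8 and 6 with crenolanib, and 8 and 4 with HPA-12. CDKN1A (p21), the CDK inhibitor, rose by 3.54 in the combination, 3.05 with crenolanib and 1.86 with HPA-12, and CDC25A, the phosphatase of G1/S and G2/M, differed by -1.47, -1.31 and -1.64 in the same order and fell in each. MKI67 (Ki-67), the proliferation marker, rose by 0.96 in the combination. Of 12 tested genes of MuvB, DREAM and B-MYB 4 rose and 3 fell in the combination, 6 and 4 with crenolanib, and 5 and 4 with HPA-12. Of all genes 12.4% rose and 50.1% fell in the combination, 36.1% and 39.4% with crenolanib, and 43.2% and 34.5% with HPA-12. With HPA-12 the MuvB list was near those shares, at 41.7% and 33.3%. The raised share of the G2/M control list, 47.1%, was near as well. MYBL2 (B-MYB), the activator that works with MuvB, rose by 0.56 in the combination but differed by -0.70 with crenolanib and -0.91 with HPA-12, where it fell; its interaction was 2.16. E2F4, the DREAM subunit, fell in all 3, with -0.76, -0.96 and -0.71.

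The counts of structural mitotic genes outside the members stand against the shares of all genes given above, 12.4% raised and 50.1% lowered in the combination, 36.1% and 39.4% with crenolanib, and 43.2% and 34.5% with HPA-12. With HPA-12 the kinetochore list was near those shares, at 46.9% and 31.2%, while 85.7% of the passenger list rose. Of 14 passenger and cohesion genes 3 rose and 3 fell in the combination, 9 and 3 with crenolanib, and 12 and 1 with HPA-12; RAD21, a cohesin subunit, rose by 0.37, 1.22 and 0.54 in the same order. Of 32 other kinetochore and checkpoint genes 11 rose and 5 fell in the combination, 16 and 6 with crenolanib, and 15 and 10 with HPA-12. Of 8 condensins 3 rose and 3 fell, 4 and 3, and 5 and 1 in that order, with SMC2 at 1.42 in the combination and 1.38 with crenolanib. Of 21 other spindle and kinesin genes 6 rose and 4 fell, 5 and 9, and 7 and 3. Of 8 other cytokinesis genes 1 rose and 3 fell, 4 and 1, and 7 and 0, with CIT, the citron kinase, at 0.97 in the combination and 0.96 with HPA-12. Of 16 genes of the anaphase-promoting complex and its partners 3 rose and 8 fell, 6 and 6, and 8 and 6; UBE2S, its chain-extending enzyme, fell with HPA-12 (-1.35).

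DNA replication genes, the neighbouring part of the cycle, fell in a larger share than all genes with each single agent, and in the combination at a share near that of all genes. With crenolanib 1 of 24 rose and 15 fell (62.5%, against 39.4% of all genes), with a median of -0.40, against -0.04 for all genes. With HPA-12 2 rose and 17 fell (70.8%, against 34.5%), with a median of -0.58, against 0.09. In the combination 2 rose and 13 fell (54.2%, against 50.1%), and the median of -0.59 was near the -0.62 of all genes. MCM4, a subunit of the replicative helicase, differed by -1.74, -0.81 and -0.73 in the combination, with crenolanib and with HPA-12 and fell in each, and MCM2 of the same helicase fell with crenolanib (-1.47) and HPA-12 (-1.14). RRM2, the ribonucleotide reductase subunit, rose in the combination (1.12). Under median-ratio scaling the combination's replication genes were 5 raised and 5 lowered with a median of -0.05, and the lists of other G2/M control, MuvB, kinetochore, passenger, condensin, spindle and cytokinesis genes had 11 and 1, 6 and 1, 16 and 1, 6 and 1, 4 and 2, 12 and 1, and 3 and 0 raised and lowered. The anaphase-promoting complex had 6 and 2. Under that scaling 21.9% of all genes rose in the combination and 26.2% fell.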

How the data were processed

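Gene expression was measured by RNA-seq in 12 libraries, 3 in each of 4 groups taken from the sample titles. The authors deposited FPKM values in a single table, per the file headers; which aligner, counter, genome build and annotation they used is not given in the sources used here. All 12 value columns matched a sample by name, with 0 left over, although the short name of crenolanib is spelled differently in titles and columns. From the FPKM, log2(FPKM + 1) was fitted in limma 3.58.1 (R 4.3.3), with each comparison using its own groups and the interaction all 4, for 11149 genes at 1 FPKM or more in at least 3 libraries, and p-values were adjusted by Benjamini-Hochberg over all of them. Tables were handled in Python 3.11.15 with pandas 2.3.3. Depth could only be estimated, since 23.8 to 39.3% of low values came out as whole reads, and so no count test was run. GC content and lengths came from GENCODE release 29, and promoters from RefSeq (GRCh38.p14).

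The members and all gene lists were chosen with earlier results of these data known. Values in every library were given for CCNB1, CDK1, PLK1, AURKA, TOP2A, FOXM1, CDC20 and BUB1, and for up to 4 raised and 4 lowered members with the largest called change in each comparison; of each other list, up to 2 raised and 2 lowered genes could be named. Replicate numbers did not pair the libraries: deviations of same-numbered libraries correlated at -0.0294 to 0.0680 over 18 pairs. On simulated data 100 of 11149 genes were changed by 1 on the log2 scale and 100 by 0.5. Of those changed by 1, the fit recovered 44% for the combination against DMSO, 85% for crenolanib and 96% for HPA-12. A far larger share of genes was called in the data. The adjusted p cut-off was therefore stricter in the simulation, and these recoveries do not carry over to the data. Alternatives were median-ratio scaling, equal sums without mitochondrial genes, other pseudocounts and filters, all libraries in 1 fit, a replicate block, each library left out, and a GC and length correction. For the interaction, 1 weight for each group was tried as well.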

Additional observations from a re-analysis of the deposited data

Results flagged for a closer look

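For 8 members the combination differed from the sum of the 2 single-agent effects, by limma's test of that difference itself, in the same direction with FPKM as deposited and under median-ratio scaling. PTTG1 was 2.24 above the sum on the log2 scale, KIF4A 1.29, BIRC5 0.69 and TPX2 0.51 (adjusted p = 6.24e-07, 6.57e-05, 0.0118 and 0.00907). CKAP2 stood at -1.77 from the sum, TTK at -1.59, BUB1 at -1.40 and TOP2A at -1.35 (adjusted p = 1.84e-05, 0.000209, 0.000288 and 5.30e-06).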

How the results depend on the processing

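Counts of members are raised and lowered of 40. Median-ratio scaling gave 24 and 1 for the combination against DMSO, 19 and 0 against crenolanib, 19 and 1 against HPA-12, and 15 and 4 for the interaction. It reversed the combination against crenolanib for CCNB1 (0.61), AURKA (0.11) and TOP2A (0.21), the combination against HPA-12 for TOP2A (0.61), and the interaction's median (0.39) and PLK1 (0.035). Equal sums without mitochondrial genes left 4 lowered for the combination against DMSO and 3 for HPA-12. The GC and length correction, chosen after seeing the data, raised 9 for the combination against DMSO, 13 for crenolanib with a median of -0.11, 0 for crenolanib against HPA-12 with CDK1 at -0.21 and TOP2A at -0.041, and 9 for the interaction; the combination against HPA-12 had 5 and 13. With all 12 libraries in 1 fit, HPA-12 against DMSO had 13 and 2, the combination 11 lowered, and crenolanib against HPA-12 4 raised. With no filter on low values, the combination against crenolanib had 5 raised and crenolanib against HPA-12 8. Of all genes, median-ratio scaling raised and lowered 21.9% and 26.2%, 14.0% and 13.0%, 22.0% and 24.3%, and 26.0% and 29.5% in the order given. Equal sums lowered 45.1% and 30.0%. The GC and length correction raised 9.52%, 25.7%, 22.4% and 15.9%, and gave 10.9% and 53.4% for the combination against HPA-12. All libraries in 1 fit gave 27.8% and 23%, 56.6% lowered and 19.7% raised, and no filter 3.94% and 19.2% raised. The causes of the changes were not tested.

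Leaving out each library gave 13 to 17 raised and 4 to 10 lowered for the combination against DMSO (4 without DMSO library 1 or 2), 18 to 20 and 13 to 16 for crenolanib, and 24 to 29 and 4 to 5 for HPA-12. The combination against crenolanib had 4 to 9 and 4 to 8 (4 raised without crenolanib library 1 or 2, 5 without library 3). Against HPA-12 it had 5 to 13 and 5 to 11 (5 raised without HPA-12 library 1; 6 raised and 5 lowered without HPA-12 library 3). Crenolanib against HPA-12 had 5 to 13 and 13 to 15 (5 raised without HPA-12 library 1, 7 without library 3), and the interaction 4 to 7 and 10 to 16 (7 raised without combination library 1). Of all genes, these fits raised and lowered 9.39 to 14% and 40 to 52.6% for the combination against DMSO. Crenolanib gave 32.9 to 35.9% and 36.3 to 39.4%, and HPA-12 40.7 to 44.1% and 32.5 to 33.9%. The combination gave 4.93 to 7.22% and 33 to 49.4% against crenolanib, and 9.37 to 13.2% and 40 to 52.5% against HPA-12. Crenolanib against HPA-12 gave 24.7 to 28% and 30.2 to 34.2%, and the interaction 14.3 to 17.4% and 46.7 to 53.6%. With the replicate number as a block the counts were 15 and 6 for the combination against DMSO, 20 and 15 for crenolanib, 28 and 5 for HPA-12, 6 and 5 for the combination against crenolanib, 8 and 10 against HPA-12, 12 and 15 for crenolanib against HPA-12, and 4 and 11 for the interaction. That block raised and lowered 11.2% and 48.1%, 35.4% and 39%, and 43.1% and 34.3% of all genes for the 3 comparisons with DMSO. The other comparisons had 6.33% and 45.1%, 11.2% and 49.2%, 29.1% and 34.7%, and 15.4% and 49.8% in the order given. The lowered count with crenolanib and both counts of crenolanib against HPA-12 were near those shares. The combination's lower depth (a median of 129 to 160 estimated reads per member, against 317 to 367 in DMSO) and wider spread limit what could be called in it.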
